A study of Mus musculus with 2 samples.

Results

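The integrated stress response and the unfolded protein response were followed through 10 genes, Atf4, Ddit3, Trib3, Asns, Chac1, Hspa5, Xbp1, Herpud1, Sdf2l1 and Dnajb9, in neonatal mouse kidney. The genes were taken by name: every probe set of the array whose deposited annotation gave 1 of these symbols and no other gene was kept, which gave 21 probe sets, against 20660 genes measured in all. Kidneys of a polycystic kidney disease model, the mutant labelled B6C3Fe a/a-bpck, were compared with wild-type kidneys, both at postnatal day 3. The wild-type label names no strain, and the labels give neither the mutated gene, the number of animals in a sample nor their sex. Each genotype was read on 1 Affymetrix Mouse 430 2.0 array, so there was no replicate and no test was possible, and a difference between genotypes is one between these 2 arrays.

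The integrated stress response begins when a kinase such as PERK or GCN2 phosphorylates the translation factor eIF2alpha. General translation then slows, while the mRNA of the transcription factor ATF4 is translated more, and ATF4 switches on genes of amino acid supply and, under lasting stress, of cell death. The unfolded protein response of the endoplasmic reticulum (ER) has PERK as 1 of its sensors. Its other sensors are ATF6 and IRE1, the enzyme that splices Xbp1 mRNA into the form that encodes an active factor, and they raise chaperones and the machinery that removes misfolded proteins. Kidney tubule cells make large amounts of membrane and secreted protein and depend on this folding capacity. ATF4 is regulated largely by translation and XBP1 by splicing, and neither step is read by the array intensities used here.

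In the mutant array, the 10 genes lay close to their wild-type readings, some a little higher and the others level or a little lower. On their brightest probe sets, the chaperone and degradation genes Hspa5, Herpud1 and Sdf2l1, with Trib3, Asns and Chac1, were 1.12-fold to 1.27-fold higher. Atf4, Ddit3 and Dnajb9 lay within 1.04-fold, and Xbp1 was 1.09-fold lower. A dimmer probe set of Hspa5 was lower, with a log2 difference of -0.27. No gene of the 10 was 1.5-fold apart in either direction, where 2.01% of the 13146 genes that passed the filter on intensity were that far higher and 2.57% that far lower. At 1.2-fold, 2 of the 10 were higher and 0 lower, against 9.87% of all genes higher and 11.2% lower. By direction alone, 6 were higher and 4 lower, where 48.0% of all genes were higher. The 6 include Trib3, which passed the filter through the mutant array alone and so could only be higher. The median log2 difference, mutant minus wild type, was 0.16 over the 10 genes and -0.01 over all genes. With the array medians set equal, a scaling that adds 0.07 to every log2 difference, 9 of the 10 were higher, as were 64.8% of all genes.

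**Figure D1:**
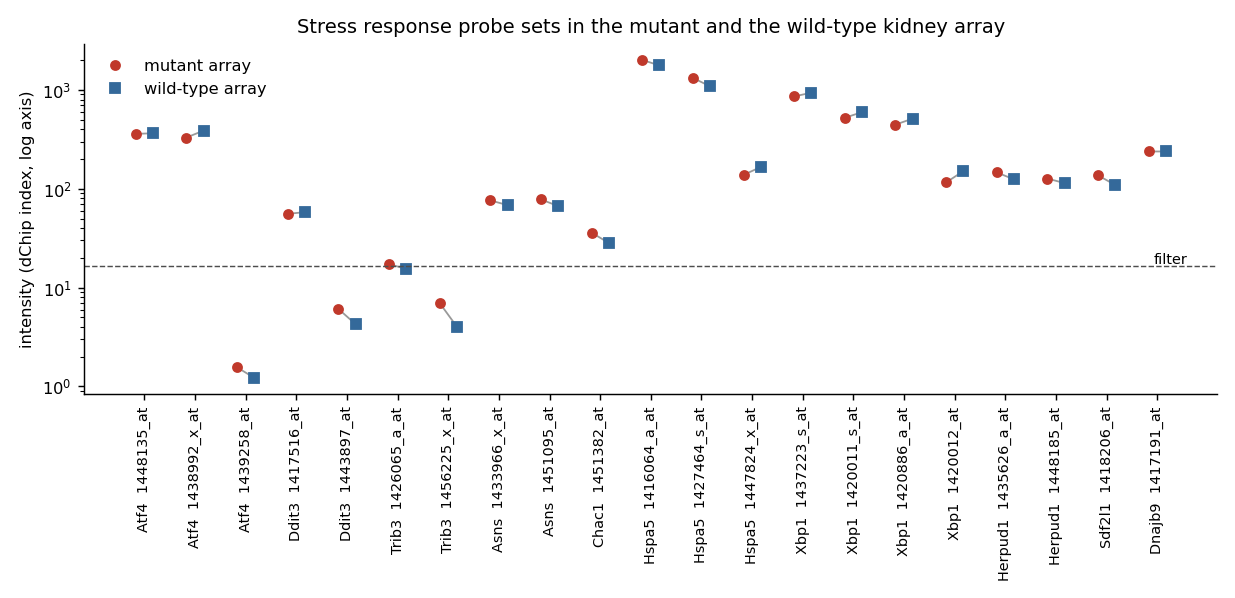
Intensity (dChip expression index, log axis) of all 21 probe sets in the mutant array (circles, left of each pair) and the wild-type array (squares, right), each symbol 1 array, with the filter at 16.53 dashed. The lines within pairs are short throughout, sloping down to wild type for Chac1, Sdf2l1 and Herpud1 and up to wild type for Xbp1.

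The arrays themselves gave 45037 probe sets each, with intensities that summed to 5175900 in the mutant array and 5173132 in the wild-type array and medians of 16.13 and 16.97. All 8 kidney tubule markers and all 6 podocyte markers passed the filter, and Umod read 1877 in the mutant array and 1981 in the wild-type array. The arrays also differed in cell type markers. Podocyte markers summed to 1196 in the mutant array and 1639 in the wild-type array, with 6 of 6 lower, and endothelial markers to 1117 and 1292, with 5 of 5 lower. Of all genes above the filter, 48.0% were higher. Adrenal cortex markers summed to 47.3 in the mutant array and 290.5 in the wild-type array, a gap that was mostly Hsd3b1 (2.77 in mutant, 204.7 in wild type), while Cyp11a1, dim in both, read 9.70 and 5.69. The 3 adrenal cortex markers that passed the filter did so through the wild-type array alone, so their direction carries no count. Chromaffin cell markers summed to 45.6 in the mutant array and 394 in the wild-type array. All 6 passed the filter through the wild-type array alone, so their direction carries no count either. Of these markers, Chga read 1.19 in the mutant array, near the lowest value the index takes, against 94.1 in the wild-type array. Proximal tubule markers summed to 8551 in the mutant array and 7058 in the wild-type array, with 6 of 8 higher, and macrophage markers to 886 and 687, with 5 of 6 higher. Collecting duct principal cell markers summed to 2025 in the mutant array and 1855 in the wild-type array, with 4 of 6 higher. Erythroid cell markers summed to 230 and 335 and liver secretory markers to 3158 and 3782, and both lists held markers of either direction. B and plasma cell markers, which mark the cells best known for a strong XBP1 programme, summed to 43.7 and 43.0, with 2 of 4 measured markers above the filter. Xist read 1113 in the mutant array and 4.67 in the wild-type array, and all 4 Y-linked genes read were lower but still above the floor in the mutant array, such as Ddx3y (84.2 in mutant, 393.5 in wild type), so that both Xist and Y-linked transcripts were read there. In whole kidney, fewer cells of a type and less RNA per cell cannot be told apart, and the part of these cell types and of sex in the differences of the stress genes was not tested.

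Of the 21 probe sets, 18 reached the filter in their brighter array, so that each of the 10 genes had at least 1 such probe set. Among these 18, 9 were higher and 9 lower in the mutant array, where 46.4% of all named probe sets above the filter were higher. The 9 higher ones include that of Trib3, which passed through the mutant array alone. Xbp1 alone gave 4 of the lower ones. Several probe sets passed for 5 genes, and in 4 of these they lay on 1 side, Hspa5 being the exception. Probe sets of 1 gene read the same 2 samples and are not replicates. Across all genes with several probe sets, the SD of the log2 difference between them had a median of 0.13, and the differences of Atf4, Ddit3, Dnajb9 and Xbp1 on their brightest probe set were smaller than this.

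**Figure D2:**
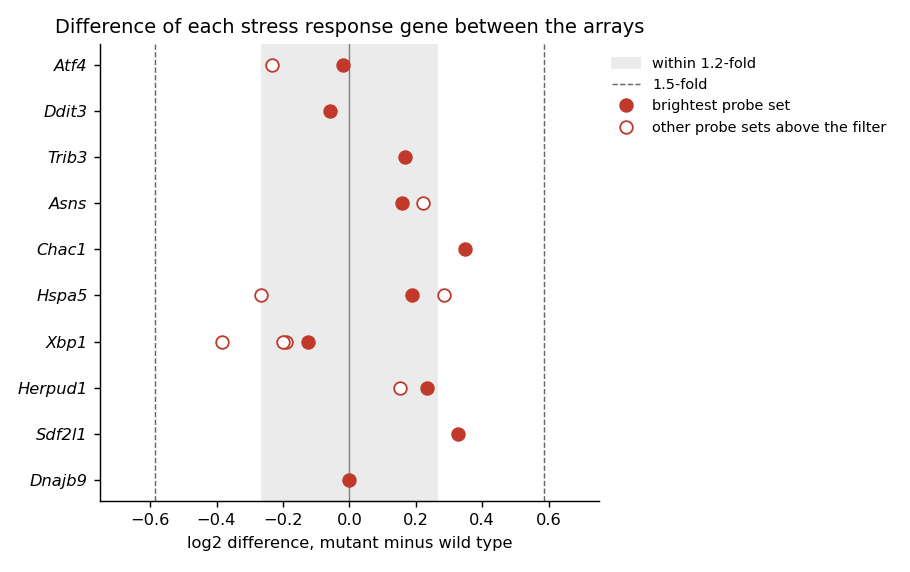
Log2 difference, mutant minus wild type, of each gene, 1 point per probe set above the filter, filled for the brightest, with the range within 1.2-fold shaded and 1.5-fold dashed. Chac1, Sdf2l1 and the second probe set of Hspa5 lie right of the shaded range. The dimmest probe sets of Hspa5 and Xbp1 lie left of it. Xbp1 has all 4 points left of 0, and no point reaches 1.5-fold.

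The ATF4 branch was first considered. Atf4 read 360 in the mutant array and 364 in the wild-type array on its brightest probe set, 1448135_at, a log2 difference of -0.02. A second probe set, 1438992_x_at, read 330 and 388, a log2 difference of -0.23. The third, 1439258_at, was near the bottom of the scale in both arrays, with 1.56 in the mutant array and 1.22 in the wild-type array, and carries no fold. Atf4 mRNA was thus level on 1 probe set and lower on another, and its level was nowhere higher above the filter with the intensities as deposited. With array medians set equal its brightest probe set stood at 0.05.

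Ddit3 encodes CHOP, the transcription factor that links lasting ER stress to cell death. It read 55.7 in the mutant array and 58.0 in the wild-type array, a log2 difference of -0.06 that became 0.02 with array medians set equal. Its other probe set, 1443897_at, was dim in both arrays (6.09 in mutant, 4.26 in wild type) and below the filter. That probe set belongs to another transcript cluster in the deposited annotation than the brighter one. The brightest probe set of each of Atf4 and Ddit3 was thus near level between the arrays, while the other Atf4 probe set above the filter was lower.

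Trib3 encodes a pseudokinase that is induced by ATF4 and CHOP and dampens their activity. It was close to the filter, with 17.3 in the mutant array and 15.4 in the wild-type array, 1.12-fold higher. Trib3 passed the filter on this probe set through the mutant array alone, so it could only count as higher. Its second probe set read 6.98 and 4.02, of which 4.02, the wild-type reading, is below the floor of 4.2 set for dim values. In relative terms that was the widest gap among the 21 probe sets, but it separates readings below the filter in both arrays.

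Asns encodes asparagine synthetase, a classical target of the amino acid branch. Its probe sets gave nearly equal readings, 76.3 and 78.0 in the mutant array against 68.4 and 66.8 in the wild-type array. The log2 differences were 0.16 and 0.22, so both were higher, by a little more than the median SD between probe sets of a gene, 0.13. Both lay within the SD of the log2 difference over all genes above the filter, 0.30. Of all genes above the filter, 18.6% were farther higher than Asns.

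Chac1 encodes an enzyme that degrades glutathione and is a target of ATF4. It was the gene farthest higher of the 10, with 36.0 in the mutant array and 28.3 in the wild-type array, 1.27-fold, and 6.02% of all genes were farther higher. Chac1 had 1 probe set, so no second reading of the same gene is at hand. In the authors' deposited table its fold was 1.27 with bounds of 1.19 and 1.37, which come from the probes of each array and hold no variation between animals. Because Chac1 is dim, adding 32 to each intensity before the log lowered its log2 difference to 0.17, where it was 0.35 with the deposited values.

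The promoters of these target genes were read for the element of ATF4. ATF4 is known to bind with C/EBP partners to the C/EBP-ATF response element (CARE), searched here as TGATGNAA on both strands. It was found in 4 of the 10 promoter windows, which run from 250 bases before to 50 bases after the annotated start, and in 3.97% of 32851 RefSeq windows of the same length. The 10 genes were chosen by name and include known ATF4 targets, so this share is no independent result. The 3 windows below are those of Trib3, Asns and Chac1 (RefSeq, GRCm38.p6), written 5′ to 3′ on the strand of the gene with the match in capitals, and they are shown because these genes were the higher ones of the ATF4 branch.
Trib3, chr2:152344011-152344310, minus strand: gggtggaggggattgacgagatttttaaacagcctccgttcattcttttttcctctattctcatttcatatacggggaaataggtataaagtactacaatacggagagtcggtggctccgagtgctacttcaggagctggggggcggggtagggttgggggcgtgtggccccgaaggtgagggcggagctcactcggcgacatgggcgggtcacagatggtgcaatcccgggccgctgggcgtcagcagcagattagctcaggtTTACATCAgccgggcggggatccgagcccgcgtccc
Asns, chr6:7693160-7693459, minus strand: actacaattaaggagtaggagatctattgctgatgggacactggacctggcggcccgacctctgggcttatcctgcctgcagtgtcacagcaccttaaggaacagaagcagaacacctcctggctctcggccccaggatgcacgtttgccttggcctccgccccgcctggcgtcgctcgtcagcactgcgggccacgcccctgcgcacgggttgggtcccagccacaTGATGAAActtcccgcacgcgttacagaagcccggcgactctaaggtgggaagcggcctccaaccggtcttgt
Chac1, chr2:119350992-119351291, plus strand: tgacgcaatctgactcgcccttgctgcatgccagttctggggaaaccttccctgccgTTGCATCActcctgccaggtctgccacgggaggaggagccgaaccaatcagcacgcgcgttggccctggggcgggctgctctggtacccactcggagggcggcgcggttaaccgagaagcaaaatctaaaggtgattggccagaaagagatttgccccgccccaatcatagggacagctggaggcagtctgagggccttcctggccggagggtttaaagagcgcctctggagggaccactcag
The match began 14 bases after the start in Trib3, 23 bases before it in Asns and 193 bases before it in Chac1. The windows of Atf4 and Ddit3 held no match to these letters. Over 265 other genes above the filter with a CARE match in a window, 134 were higher and 131 were lower, and their median log2 difference was 0.00, so a match to these letters alone went with no shared direction. A match is a string of letters and not a measured binding site.

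The ER branch was read through its chaperones and its degradation genes. Hspa5 encodes BiP, the main chaperone of the ER lumen, which holds the stress sensors inactive while folding keeps pace. It was bright, with 2015 in the mutant array and 1768 in the wild-type array on probe set 1416064_a_at, 1.14-fold higher. Probe set 1427464_s_at read 1325 and 1088, a log2 difference of 0.28. The third, 1447824_x_at, went the other way, with 138 in the mutant array and 166 in the wild-type array, a log2 difference of -0.27. This dimmer probe set lies in another transcript cluster of the deposited annotation, and all 3 carry suffixes that mark probes shared among transcripts. The brighter probe sets of Hspa5 were thus higher in the mutant array, and the dimmest, itself well above the filter, was lower.

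Herpud1 encodes an ER membrane protein that assembles the degradation complex. It read 146 in the mutant array and 125 in the wild-type array on its brighter probe set, and 127 and 114 on the other. Both were higher, by 0.23 and 0.15 on the log2 scale. Sdf2l1, which encodes a partner of BiP in the ER lumen, read 137 in the mutant array and 109 in the wild-type array on its only probe set, 1.25-fold higher, and 6.73% of all genes were farther higher. In the authors' deposited table the bounds of the Sdf2l1 fold were 1.22 and 1.29. Dnajb9 encodes ERdj4, a co-chaperone that recruits BiP and is a target of XBP1. It did not follow the other ER genes, with 238.4 in the mutant array and 238.6 in the wild-type array.

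Xbp1 was the gene farthest lower. On its brightest probe set, 1437223_s_at, it read 860 in the mutant array and 938 in the wild-type array, 1.09-fold lower. The others read 523 and 597, 446 and 513, and 116 and 151. All 4 were lower, with log2 differences of -0.13, -0.19, -0.20 and -0.38, and the largest was on the dimmest of them. The probe sets fall into 2 transcript clusters of the annotation, each holding lower values. In the authors' deposited table the folds ran from -1.09 to -1.31, where a minus sign means lower in the mutant. With array medians set equal the brightest probe set stood at -0.05, and Xbp1 was then the only one of the 10 genes that was lower. The share of the spliced form was not measured.

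The ER genes carry other elements. The ER stress response element (ERSE) is bound by ATF6 and XBP1 beside the general factor NF-Y, and was searched as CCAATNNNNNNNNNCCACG. ERSE-II, its compact variant, was searched as ATTGGNCCACG, and the core of the unfolded protein response (UPR) element as TGACGTG, all on both strands. ERSE and ERSE-II both end in CCACG and differ in the order and spacing of the NF-Y part. The windows of Hspa5 and Herpud1 are shown because these were the only ones of the 10 with a match to ERSE, ERSE-II or the UPR element core (RefSeq, GRCm38.p6, matches in capitals).
Hspa5, chr2:34771840-34772139, plus strand: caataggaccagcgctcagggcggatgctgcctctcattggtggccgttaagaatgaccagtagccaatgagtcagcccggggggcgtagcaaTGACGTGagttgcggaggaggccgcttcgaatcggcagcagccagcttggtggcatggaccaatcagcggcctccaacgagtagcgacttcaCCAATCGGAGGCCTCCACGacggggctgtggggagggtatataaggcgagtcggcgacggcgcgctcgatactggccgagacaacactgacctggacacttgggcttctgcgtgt
Herpud1, chr8:94386179-94386478, plus strand: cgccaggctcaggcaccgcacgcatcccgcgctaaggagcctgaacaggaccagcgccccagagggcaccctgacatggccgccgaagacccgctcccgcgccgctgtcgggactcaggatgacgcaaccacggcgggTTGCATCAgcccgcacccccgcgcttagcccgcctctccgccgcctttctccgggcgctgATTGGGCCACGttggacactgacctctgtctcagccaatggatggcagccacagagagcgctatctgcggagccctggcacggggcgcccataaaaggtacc
Hspa5 held ERSE 65 bases and the UPR element core 157 bases before the start. Herpud1 held ERSE-II 52 bases and a CARE 112 bases before the start, so its window joined an element of each branch. ERSE was found in 0.119% of all windows, ERSE-II in 0.0365% and the UPR element core in 2.01%. The 10 genes were chosen as genes of these responses, so their matches are no independent result. The windows of Sdf2l1, Dnajb9 and Xbp1 held no match to any of the 4 motifs.

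**Figure D3:**
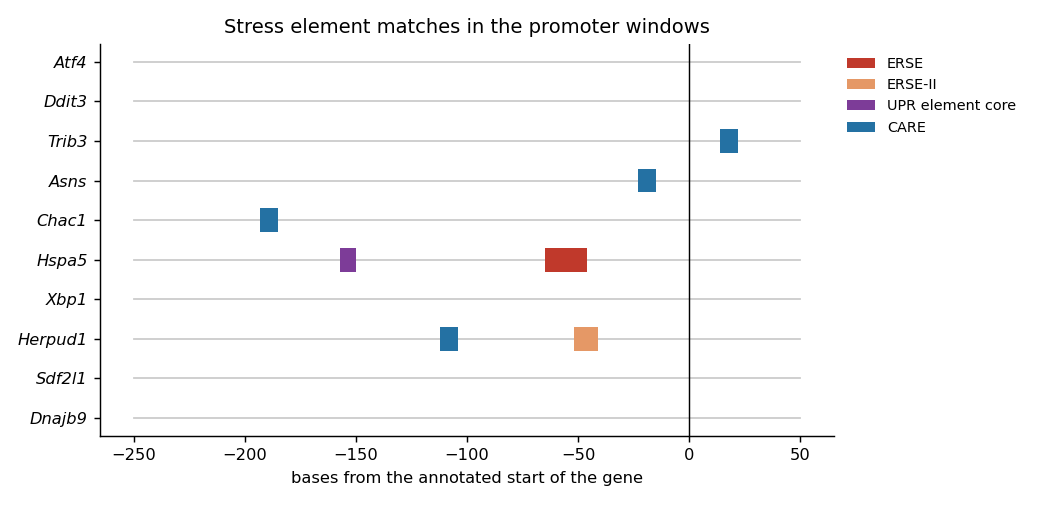
Matches to the 4 motifs (coloured blocks, drawn to their length) in the promoter window of each gene, by distance in bases from the annotated start (0, vertical line). Hspa5 and Herpud1 hold 2 matches each, Trib3, Asns and Chac1 hold 1 each, and the other 5 windows hold none.

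ERSE matches also lay in the windows of other ER genes. Besides Hspa5, 14 genes above the filter had an ERSE in a window, and 9 of them stood on the lists of ER chaperones or of ER degradation and translocation described next. Those lists held 25 and 31 of the 13146 genes above the filter. Many genes on them are known targets of ATF6 or XBP1, which bind ERSE, so the overlap is no independent result. The same 9 genes also enter the list counts below. Of the 9 listed genes, Calr, Canx, Creld2, Dnajc3, Hsp90b1, Pdia6 and Syvn1 were higher in the mutant array and Derl3 and Ero1b lower. The log2 differences ran from -0.49 for Derl3 to 0.27 for Creld2. Derl3 passed the filter through the wild-type array alone. In the mutant array 11 of the 14 were higher and 3 lower, and their median log2 difference was 0.05, against 48.0% of all genes higher. With array medians set equal 11 were higher, where 64.8% of all genes were, and after quantile normalisation 9 were, where 50.4% were. None of the 14 was 1.5-fold apart. For ERSE-II, 5 of 7 other genes were higher, and for the UPR element core 160 of 326.

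The wider programme, together with protein quality control in the cytosol and mitochondria, was described through 8 lists. They held 149 genes above the filter, of which 86 were higher, where 48.0% of all genes were. Past 1.5-fold, 5 were higher and 0 lower, against 2.01% of all genes higher and 2.57% lower. The lists were chosen with earlier results of these data known, so these counts and those of each list only describe. With array medians set equal, the counts of higher genes given below for each list stand against 64.8% of all genes. Among ER chaperones and folding enzymes, 17 of 25 were higher and 8 lower, the median log2 difference being 0.08, and 20 of 25 were higher with array medians set equal. Manf, a secreted ER stress factor, was 1.26-fold higher (608 in mutant, 482 in wild type), and Creld2, another such factor, 1.21-fold higher (263 in mutant, 218 in wild type). Calr, the calcium-binding chaperone calreticulin, read 1412 in the mutant array and 1251 in the wild-type array, with its 3 probe sets between 0.15 and 0.20 on the log2 scale. Hsp90b1, which encodes the ER chaperone GRP94, read 2069 and 1896 on its brighter probe set (0.13) and was lower on the other (-0.22). The farthest lower were Ero1b, an oxidase of disulfide formation, 1.21-fold, and Txndc11, 1.19-fold. The list thus held small differences, mostly in the direction of Hspa5, Herpud1 and Sdf2l1.

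In ER-associated degradation and translocation, 20 of 31 genes were higher, with a median of 0.04, and 23 of 31 with array medians set equal. Edem1, a lectin of glycoprotein degradation, was 1.23-fold higher (110 in mutant, 89.3 in wild type), although its other probe set stood at 0.06. Ssr1, a subunit of the translocon-associated complex, was 1.22-fold higher and dim. Lower were Derl3, a retrotranslocation factor near the filter, 1.41-fold (15.6 in mutant, 21.9 in wild type), and Edem2, 1.27-fold (39.0 in mutant, 49.5 in wild type). Derl3 passed the filter through the wild-type array alone, so it could only be lower. When the probe sets of each gene were averaged, 13 genes of this list were higher and its median was -0.02.

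The sensors and regulators of translation were mostly lower by small amounts, 12 of 18, with a median of -0.05, but with array medians set equal 10 were higher and the median was 0.02, and with probe sets averaged the median was 0.01. Eif2ak3, which encodes PERK, gave no usable reading on the probe set that stood for it, with 1 in the mutant array and 1.19 in the wild-type array. Ern1, which encodes IRE1, read 72.8 in the mutant array and 75.4 in the wild-type array, and its probe sets spread between -0.05 and 0.51 in log2 difference. Atf6 was the farthest higher, with 71.5 and 59.9, and all 3 of its probe sets were higher (0.26 to 0.83). Eif2b1, a subunit of the exchange factor that eIF2alpha phosphorylation inhibits, was 1.16-fold higher, and its partner subunit gene Eif2b4 was 1.15-fold lower. Eif2ak2, the kinase that senses double-stranded RNA, was the farthest lower at 1.38-fold (42.6 in mutant, 58.8 in wild type), yet its probe sets ran from -0.46 to 0.27. Eif2ak4, which encodes GCN2, read 58.4 in the mutant array and 62.9 in the wild-type array. Ppp1r15a, which encodes the phosphatase subunit GADD34 that reverses the response, read 48.1 and 44.6.

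Among the other ATF4 target genes, 16 of 27 were higher, with a median of 0.04, and 22 of 27 with array medians set equal. This list held 3 genes at least 1.5-fold higher and 0 as far lower, where 2.01% and 2.57% of all genes were. Gdf15, a stress-induced cytokine gene, read 66.2 in the mutant array and 23.6 in the wild-type array, 2.80-fold higher. Gpt2, a mitochondrial transaminase of alanine, read 157 and 79.3, 1.98-fold higher, and its 4 probe sets lay between 0.99 and 1.23 on the log2 scale. Atf3, a transcription factor induced by many stresses, read 40.9 in the mutant array and 25.6 in the wild-type array, 1.59-fold higher. Gdf15 and Atf3 each had only 1 probe set above the filter. The farthest lower were Nupr1, a stress-induced chromatin protein gene, 1.30-fold (161 in mutant, 209 in wild type), and Phgdh, the first enzyme of serine synthesis, 1.19-fold (486.5 in mutant, 577 in wild type).

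The aminoacyl-tRNA synthetase genes, which charge tRNAs and are known ATF4 targets, were divided, with 7 of 12 higher and a median of 0.00, and 10 of 12 higher with array medians set equal. Iars was 1.24-fold and Lars 1.17-fold higher, while Cars, at 26.2 in the mutant array and 38.8 in the wild-type array, was 1.48-fold lower and Yars 1.08-fold lower. In the stress-linked apoptosis list 10 of 14 were higher, with a median of 0.08, and 11 of 14 with array medians set equal. Pmaip1, which encodes the pro-apoptotic protein NOXA, was 2.38-fold higher (90.3 in mutant, 38.0 in wild type), followed by Atf3, a member of this list too. Pmaip1 also had only 1 probe set above the filter. Bbc3, which encodes the related protein PUMA, was dim and 1.47-fold lower (15.8 in mutant, 23.1 in wild type). Bbc3 passed the filter through the wild-type array alone.

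**Figure D4:**
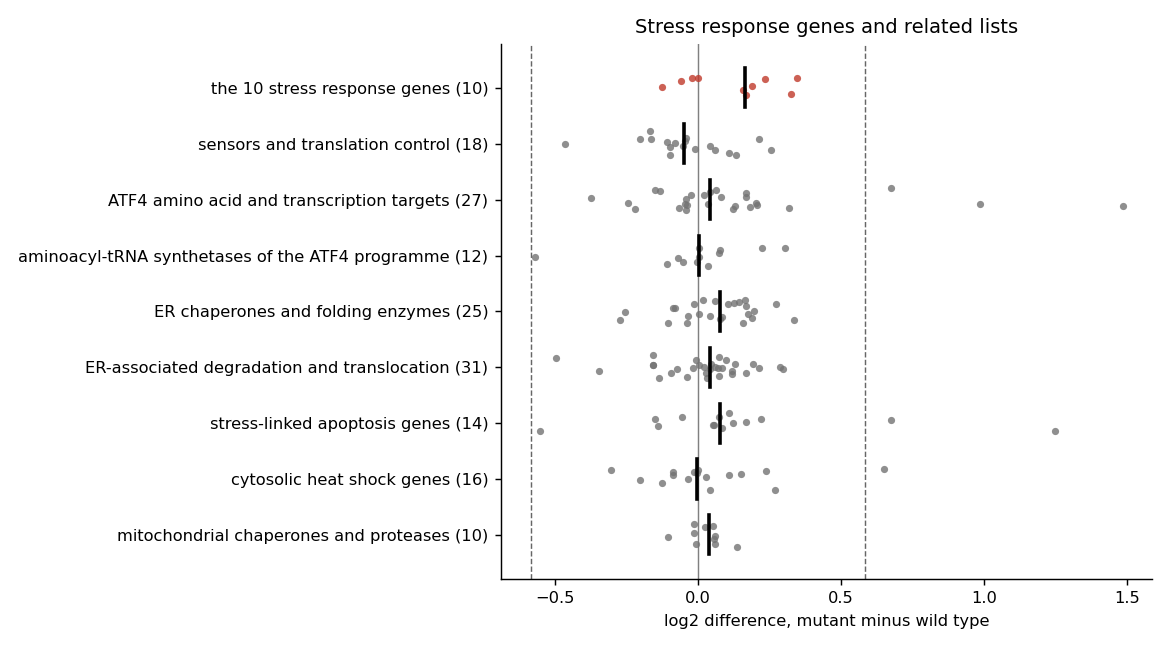
Log2 difference, mutant minus wild type, of the 10 stress response genes (top) and of the genes above the filter in each related list (number in brackets), 1 point per gene, with the list's median as a black bar and 1.5-fold dashed. The points beyond 1.5-fold on the right are Gdf15, Gpt2, Atf3 (in both lists that hold it), Pmaip1 and Hspa1a, and none lies beyond 1.5-fold on the left.

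Protein quality control in other compartments was set beside the ER. Of cytosolic heat shock genes, 8 of 16 were higher, with a median of -0.00, and 11 of 15 with array medians set equal. Hspa1a, the inducible HSP70, was 1.57-fold higher (104 in mutant, 66.3 in wild type) on its only probe set above the filter. Hsf1, the heat shock factor itself, was 1.21-fold higher. Hspa1b, a near-identical copy of Hspa1a whose transcripts the probes may share, was 1.18-fold higher, with its 3 probe sets between 0.21 and 0.29. Hsf2 was 1.24-fold and Chordc1, an HSP90 co-chaperone gene, 1.15-fold lower. Hsf2 (13.5 in mutant, 16.7 in wild type) passed the filter through the wild-type array alone, so it could only be lower. Mitochondrial chaperones and proteases lay close together, 6 of 10 higher with a median of 0.04, and 9 of 10 with array medians set equal. Lonp1, a matrix protease, was 1.10-fold and Hspa9, the matrix HSP70, 1.04-fold higher, and Yme1l1, an inner membrane protease, was 1.07-fold and Dnaja3 1.01-fold lower.

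The differences of the 10 genes were then followed over the alternatives in processing. Chac1, Sdf2l1, Herpud1, Asns, Hspa5 and Trib3 were higher under every setting in which they had a value, and Xbp1 was lower under all 9. Several of these settings could not move a gene. The authors' table holds the same intensities, and removing or raising the floor left all 10 genes unchanged. For Chac1 and Sdf2l1, with 1 probe set each, averaging probe sets and leaving out suffixes changed nothing either. Trib3 passed the filter through the mutant array alone, so it could only be higher with the intensities as deposited. Atf4, Ddit3 and Dnajb9 were higher only with array medians set equal. Hspa5 ran from 0.07, the mean of its 3 probe sets, to 0.26, and Xbp1 from -0.38 to -0.05.

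**Figure D5:**
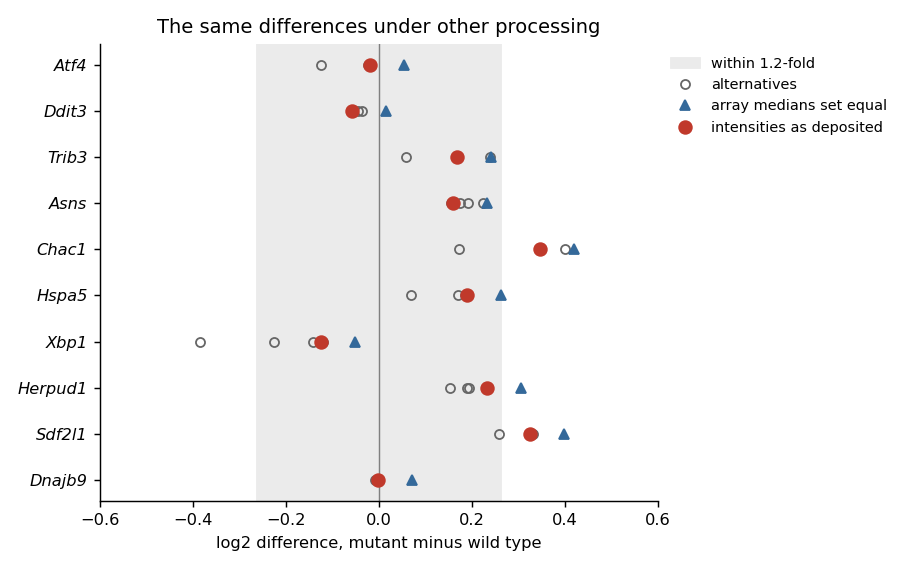
Log2 difference, mutant minus wild type, of each gene with the intensities as deposited (filled circles), with array medians set equal (triangles) and under the other alternatives (open circles), with the range within 1.2-fold shaded. Atf4, Ddit3 and Dnajb9 cross 0 with array medians set equal, and the other 7 genes stay on 1 side.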

How the data were processed

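Total RNA from kidneys of postnatal day 3 was labelled with biotin from 100 ng and put on Affymetrix Mouse 430 2.0 arrays, per the labels. The authors deposited intensity values, on a linear scale, from the December 2010 version of dChip, per the series' design text. Their background and normalisation steps are not stated in those sources. The authors also deposited, per the file headers, a signed fold ratio with lower and upper bounds. The intensities of both deposited files were equal in all 45037 probe sets.

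Here 37579 probe sets named 1 gene, and 34316 of them took a RefSeq symbol. Tables were handled in Python 3.11.15 with pandas 2.3.3. Values were raised to at least 4.2 (20th percentile over both arrays), and log2 was taken. Each gene was represented by its brightest probe set, by mean log2, and passed if its brighter array reached the median, 16.53. The number of arrays limits the precision, and no test was made. Calculations were tested on simulated data, with changes of more than 1.5-fold planted in bright genes. Smaller changes, like the differences of the 10 genes, were not planted. The genes and lists were chosen with earlier results of these data known. Named were all 10 genes, the 2 farthest higher and lower of each list, any list gene 1.5-fold apart and 8 fixed genes (Eif2ak3, Ern1, Atf6, Eif2ak4, Ppp1r15a, Hsp90b1, Calr, Atf3). Canx, Dnajc3, Pdia6, Syvn1 and Hspa1b were named after their values were seen. One gene that this rule names is not reported here. Tried as alternatives were 2 scalings, other floors, filters, thresholds and a pseudocount, the mean of probe sets, leaving out shared-probe suffixes, and the authors' table.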

Additional observations from a re-analysis of the deposited data

How the results depend on the processing

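No paired analysis was possible because there was 1 array per genotype, and for the same reason no replicate could be left out. The median of the 10 genes ran from 0.08, without _x_at, _s_at and _a_at probe sets, to 0.24, with array medians set equal. No gene of the 10 was 1.5-fold or 2-fold apart under any alternative. At 1.2-fold there were 2, Chac1 and Sdf2l1, with the intensities as deposited, but with a pseudocount of 32 neither reached it (0.17 and 0.26), Herpud1 passed it with array medians set equal (0.31), and Xbp1 passed it without the suffixes named above. With the filter at the 75th percentile (83.51), 6 of the 10 genes were left, 3 of them higher. Without _x_at, _s_at and _a_at probe sets 8 were left, 4 of them higher, and Xbp1, then on its dimmest probe set, stood at -0.38. Setting array medians equal left 1 gene lower, where 4 were lower as deposited: this scaling adds 0.07 to every difference, and Atf4 (-0.02), Ddit3 (-0.06) and Dnajb9 (0.00) lay within that of 0. Of the 8 list medians, 4 changed sign under some alternative: sensors (0.02 with array medians set equal, 0.01 with probe sets averaged), degradation and translocation (-0.02 with probe sets averaged), synthetases (-0.05 without those suffixes, with 4 of 11 genes higher) and heat shock (0.07 with array medians set equal, 0.00 after quantile normalisation). Readings near or below the filter limit Trib3 and the dim probe sets of Atf4 and Ddit3.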
